A study of Mus musculus with 5 samples.

Results

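The genes described here are 10 leukocyte integrin subunit genes of the mouse, 7 coding for alpha chains (Itga4, Itga5, Itga6, Itgae, Itgal, Itgam and Itgax) and 3 for beta chains (Itgb1, Itgb2 and Itgb7). The rule picks them by name, and all 10 were found by their Ensembl identifiers among the 55487 gene identifiers of the deposited count table. Bulk RNA sequencing covered 5 libraries of sorted common lymphoid progenitors, the bone marrow cells from which lymphocytes arise. The 3 SF1 libraries came from SclCre;JAK2-V617F mice, in which a Cre recombinase driven by Scl sequences is switched on by tamoxifen and the mutant, constantly active kinase JAK2-V617F is then made. The 2 WT libraries came from wild-type mice, and the labels used here do not give the age of the mice. In both groups the cells were taken 16 weeks after tamoxifen and sorted as lineage-negative, CD127-positive and Flt3-positive. Scl sequences drive Cre in blood stem and early progenitor cells, so the allele reaches lymphoid progenitors through their ancestors. Whether each library came from a separate animal or from a pool is not stated, so the p-values below measure only the spread between these libraries, which may be technical.

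Integrins are adhesion receptors made of an alpha and a beta chain, and a chain reaches the cell surface only with a partner. On blood cells, alpha4 pairs with beta1 (a receptor for VCAM-1 and fibronectin) or with beta7 (a receptor for the gut addressin MAdCAM-1). Alpha5 and alpha6 pair with beta1 to bind fibronectin and laminin, and alphaE pairs with beta7 to bind E-cadherin. AlphaL, alphaM and alphaX pair with beta2 to form LFA-1 (a receptor for ICAMs), Mac-1 (which binds complement iC3b, ICAM-1 and fibrinogen) and p150,95. In bone marrow the beta1 integrins hold progenitors to stroma, LFA-1 is found on most leukocytes, and Mac-1 is a textbook mark of neutrophils and monocytes. RNA levels say nothing directly of protein on the cell surface.

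Promoter sequence is shown for 3 of the members called higher in SF1, the beta7 gene, its alpha4 partner and the myeloid alphaM gene. The bases are the 250 before the gene start as RefSeq gives it (GRCm38.p6), 5′ to 3′ on the gene's strand, and the table held 6 of the 10 members. RefSeq and GENCODE starts can differ, and the last bases of the Itgb7 window lie inside the gene as GENCODE places it. Capitals mark the letters GAGGAA or TTCCTC, a core bound by the myeloid and lymphoid factor PU.1, and TGTGGT or ACCACA, a core bound by RUNX factors. The search covered both strands, and these 2 motifs do not overlap each other in the windows shown. The first was present in 23.3% and the second in 14% of 32851 windows of the same length. The Itgb7 window lies at chr15:102231936-102232185 on the minus strand, that of Itga4 at chr2:79255176-79255425 on the plus strand, and that of Itgam at chr7:128062390-128062639 on the plus strand.
Itgb7: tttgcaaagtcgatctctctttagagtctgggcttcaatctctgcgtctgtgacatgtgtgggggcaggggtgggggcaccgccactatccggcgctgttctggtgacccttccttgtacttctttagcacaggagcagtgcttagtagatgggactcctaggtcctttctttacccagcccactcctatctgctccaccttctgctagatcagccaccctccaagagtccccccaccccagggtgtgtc
Itga4: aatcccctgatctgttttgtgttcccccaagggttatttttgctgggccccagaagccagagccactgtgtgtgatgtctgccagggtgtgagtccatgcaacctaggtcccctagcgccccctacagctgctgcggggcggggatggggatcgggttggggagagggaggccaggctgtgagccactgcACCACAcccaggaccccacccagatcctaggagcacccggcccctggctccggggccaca
Itgam: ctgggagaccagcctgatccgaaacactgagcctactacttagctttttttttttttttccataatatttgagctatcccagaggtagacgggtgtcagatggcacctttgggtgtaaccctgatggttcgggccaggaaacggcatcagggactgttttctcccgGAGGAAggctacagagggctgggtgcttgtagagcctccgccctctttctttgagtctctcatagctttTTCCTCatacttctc
The Itgb7 window held neither motif, the Itga4 window held 1 RUNX core that begins 60 bases before the start, and the Itgam window held 2 PU.1 cores that begin 84 and 15 bases before it. Of the other windows, Itga5 and Itgb1 held 1 PU.1 core each and Itgax held none. These matches are letters only and show no binding.

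The SF1 libraries held 9350767 to 11290082 counts each, against 20424296 counts for WT replicate 1 and 8894288 for WT replicate 2. Levels are given as CPM, counts scaled to a common library total after TMM normalization, and a single count stood for 0.0503 to 0.114 CPM. Reads were amplified without molecular identifiers, so copies of 1 molecule cannot be told apart. They carry no strand, so reads of an antisense gene cannot be told apart either. The SEs below come from a fit that includes the spread between libraries. Flt3, the sorted receptor, had 1594 to 1700 CPM in SF1 libraries and 1511 to 1514 CPM in WT libraries (adjusted p = 0.233). Il7r, which codes for CD127, had 421 to 465 CPM in SF1 libraries and 331 to 371 CPM in WT libraries (log2 fold change 0.32, adjusted p = 0.0318). The Il7r call was lost in 7 of 14 processing alternatives, among them those without WT replicate 1 or any SF1 replicate, with adjusted p between 0.00727 and 0.211. Jak2 had 63.3 to 68.1 CPM in SF1 libraries and 35.4 and 58.4 CPM in WT libraries, and gene counts do not show the point mutation (adjusted p = 0.104). All 7 genes of a lymphoid progenitor list were detected, and their summed level was 10947 to 11590 CPM in SF1 libraries and 10317 to 10670 CPM in WT libraries. Besides Il7r, Ly6d was higher in SF1 (log2 fold change 0.92, adjusted p = 0.000232), Rag1 was lower (63.9 to 113 CPM in SF1 libraries, against 138 and 182 CPM in WT libraries, adjusted p = 0.0199) and Kit was lower (-0.51, adjusted p = 0.0116). Flt3, Dntt and Ighm did not pass. Here and below, a fit without 1 WT replicate compares the 3 SF1 libraries with a single WT library. A call lost there does not tell whether that library's values or the smaller comparison was the reason. The Rag1 call was lost with DESeq2 in place of edgeR, and without SF1 replicate 2 or 3 or WT replicate 1. The Kit call was lost without WT replicate 1.

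Among the integrin genes, Itgb7, Itgam, Itgax and Itga4 were higher in SF1 progenitors than in WT progenitors, and Itgal and Itga5 were lower. Itgb1, Itgb2 and Itga6 did not pass the test, and Itgae was too low to be tested. The test was edgeR's quasi-likelihood test over 14423 genes with Benjamini-Hochberg adjustment and a threshold of 0.05. Of the 9 members tested, 4 were higher (44.4%) and 2 lower (22.2%), where the shares over all genes tested were 6.77% higher, 9.74% lower and 16.5% called in either direction. SF1 and WT values did not overlap for 6 of the members tested, where this held for 49% of all genes tested. The median log2 fold change of SF1 over WT was 0.33 over the members tested and 0.02 over all genes tested.

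**Figure D1:**
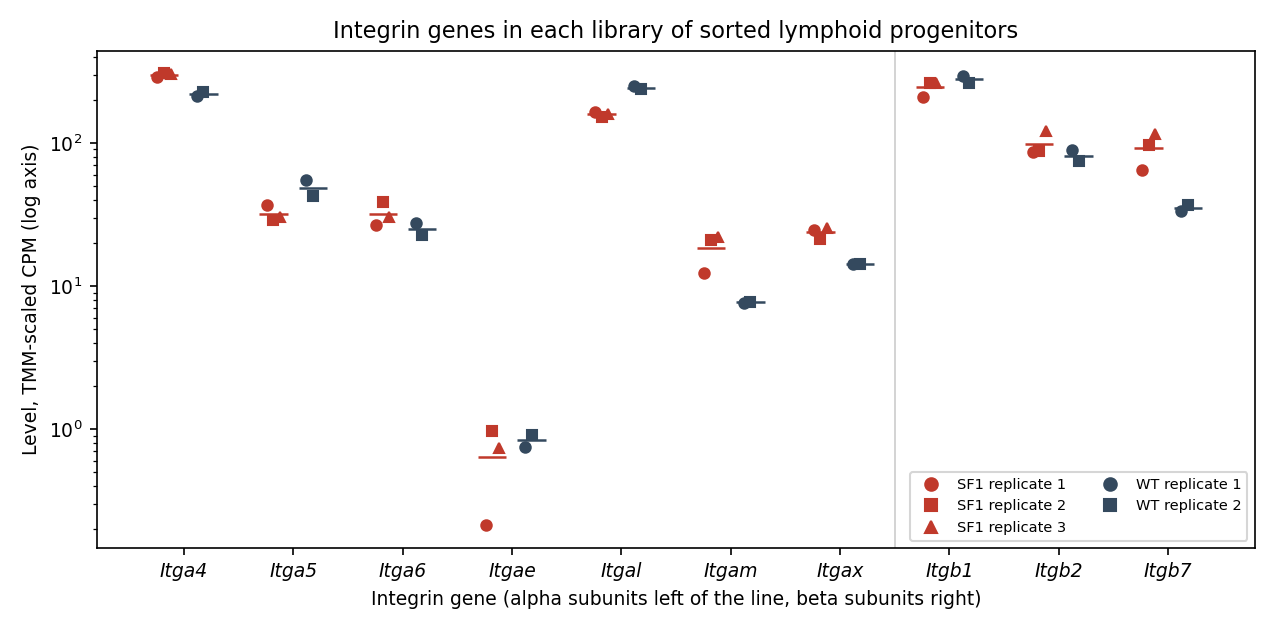
Level of each of the 10 integrin genes (TMM-scaled CPM, log axis) in the 3 SF1 libraries, left, and the 2 WT libraries, right, of each gene, with a line at the group mean. Itgb7, Itgam, Itgax and Itga4 lie higher in every SF1 library than in either WT library, Itgal and Itga5 lie lower, and Itgae is below 1 CPM in all 5 libraries.

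The largest fold change among the members tested was that of Itgb7 (ENSMUSG00000001281, chr15:102215995-102231944, minus strand, GRCm38), the beta chain that alpha4 and alphaE use to home to and stay in the gut. It had 64.6, 97.1 and 115 CPM in SF1 replicates 1, 2 and 3, against 33.4 and 36.8 CPM in WT replicates 1 and 2. Every SF1 library was above both WT libraries, and the SF1 libraries spread more widely, with replicate 1 the lowest of them. The mean was 92.1 ± 25.4 CPM in SF1 (SD, n = 3) and 35.1 ± 2.42 CPM in WT (SD, n = 2), and the fitted log2 fold change was 1.40 (SE 0.21, adjusted p = 0.00359), or 2.64-fold. Itgb7 passed the threshold in all 14 alternatives.

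Itga4 (ENSMUSG00000027009, chr2:79255426-79333123, plus strand) codes for alpha4, which pairs with both beta1 and beta7. Its level was 287, 306 and 305 CPM in SF1 replicates 1, 2 and 3, against 211 and 225 CPM in WT replicates 1 and 2. The 3 SF1 libraries stood close together and above both WT libraries. The means were 299 ± 10.4 CPM in SF1 and 218 ± 10.4 CPM in WT, and the fitted log2 fold change was 0.46 (SE 0.08, adjusted p = 0.00568). The antisense gene Cerkl overlaps 1124 bp (8.04%) of the Itga4 exons and had 354, 412 and 406 counts in SF1 libraries and 390 and 243 counts in WT libraries. Cerkl was itself higher in SF1 (log2 fold change 0.67, adjusted p = 0.0208), and reads of the shared stretch cannot be assigned to a strand. The part of Cerkl reads in the Itga4 result was not tested.

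Itgae (ENSMUSG00000005947, chr11:73090583-73147446, plus strand) codes for alphaE, the CD103 chain of tissue-resident lymphocytes and some dendritic cells. SF1 replicates 1, 2 and 3 held 2, 11 and 8 counts of it and WT replicates 1 and 2 held 15 and 8 counts, or 0.213, 0.963 and 0.735 CPM in SF1 and 0.755 and 0.911 CPM in WT. The groups overlapped. With no filter on low counts its log2 fold change was -0.35 with adjusted p = 0.804, and at these counts a difference was not detectable.

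Itgb1 (ENSMUSG00000025809, chr8:128685654-128733200, plus strand), the beta chain shared by alpha4, alpha5 and alpha6, had 208, 263 and 262 CPM in SF1 replicates 1, 2 and 3, against 294 and 261 CPM in WT replicates 1 and 2. The groups overlapped, since SF1 replicates 2 and 3 were just above WT replicate 2, and the log2 fold change was -0.18 (SE 0.11, adjusted p = 0.303). Itga5 (ENSMUSG00000000555, chr15:103344286-103366763, minus strand), the fibronectin receptor's alpha chain, had 36.9, 28.8 and 30.4 CPM in SF1 libraries, against 54.7 and 42.6 CPM in WT libraries. Every SF1 library was below both WT libraries, with means of 32.0 ± 4.29 CPM in SF1 and 48.6 ± 8.56 CPM in WT, and the fitted log2 fold change was -0.61 (SE 0.15, adjusted p = 0.0252). The Itga5 call was lost in 5 of 14 alternatives, with log2 fold changes between -0.78 and -0.31 and adjusted p between 0.000125 and 0.219. These were the correction for GC content and length (log2 fold change -0.37, adjusted p = 0.0982), the same correction with the replicate block (-0.31, adjusted p = 0.199), and the fits without SF1 replicate 2 (adjusted p = 0.091), without SF1 replicate 3 (0.0854) or without WT replicate 1 (log2 fold change -0.41, adjusted p = 0.219).

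Itga6 (ENSMUSG00000027111, chr2:71745616-71858416, plus strand), the laminin receptor's alpha chain, had 26.7, 38.4 and 30.2 CPM in SF1 libraries and 27.5 and 22.8 CPM in WT libraries. The groups overlapped through SF1 replicate 1, and the log2 fold change was 0.33 (SE 0.17, adjusted p = 0.222). Of the 3 alpha genes that use beta1, Itga4 was therefore higher and Itga5 lower in SF1, while Itga6 and Itgb1 itself did not pass the test.

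The beta2 genes also differed in direction. Itgal (ENSMUSG00000030830, chr7:127296260-127335138, plus strand), the alpha chain of LFA-1, had 164, 152 and 159 CPM in SF1 replicates 1, 2 and 3, against 250.4 and 236 CPM in WT replicates 1 and 2. The libraries of each group stood close together and the groups were well apart. The means were 158 ± 5.78 CPM in SF1 and 243 ± 10.1 CPM in WT, and the fitted log2 fold change was -0.62 (SE 0.08, adjusted p = 0.00153), and Itgal passed in all 14 alternatives, with log2 fold changes between -0.67 and -0.45.

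Itgam (ENSMUSG00000030786, chr7:128062640-128118491, plus strand), the CD11b chain of Mac-1, had 12.3, 21.0 and 21.9 CPM in SF1 replicates 1, 2 and 3, against 7.65 and 7.74 CPM in WT replicates 1 and 2. SF1 replicate 1 was the lowest SF1 library and still above both WT libraries. The means were 18.4 ± 5.28 CPM in SF1 and 7.70 ± 0.0677 CPM in WT, and the fitted log2 fold change was 1.26 (SE 0.26, adjusted p = 0.0121). The call was lost without SF1 replicate 2 (adjusted p = 0.0538) and without WT replicate 1, where the log2 fold change was 1.25. Over the 14 alternatives the log2 fold change lay between 1.05 and 1.48. On the same strand 3450 bp (68.7%) of the Itgam exons are shared with the predicted gene Gm49368, which had 4 counts in all 5 libraries together. How reads in shared exons were counted is not given, so the Itgam level per length is uncertain.

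Itgax (ENSMUSG00000030789, chr7:128129547-128150657, plus strand), the CD11c chain found on dendritic cells and macrophages, had 24.8, 21.3 and 25.5 CPM in SF1 libraries, against 14.2 and 14.3 CPM in WT libraries. All 3 SF1 libraries were above both WT libraries. The means were 23.8 ± 2.24 CPM in SF1 and 14.3 ± 0.113 CPM in WT, and the fitted log2 fold change was 0.74 (SE 0.15, adjusted p = 0.0112), and this call was lost without WT replicate 1 (adjusted p = 0.0712; range over alternatives 0.00148 to 0.0712). Itgb2 (ENSMUSG00000000290, chr10:77530252-77565708, plus strand), the beta chain that all 3 need, had 86.7, 87.4 and 121 CPM in SF1 libraries, against 88.7 and 74.1 CPM in WT libraries. The groups overlapped, SF1 replicate 3 was the highest, and the log2 fold change was 0.27 (SE 0.16, adjusted p = 0.276).

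**Figure D2:**
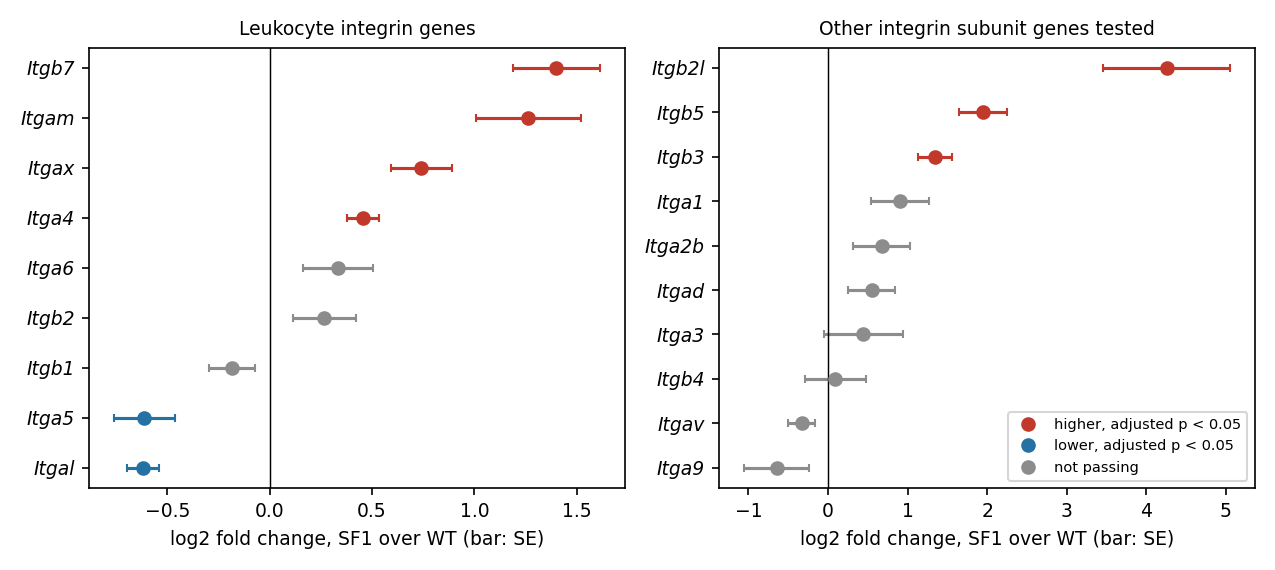
Log2 fold change of SF1 over WT with its standard error for the 9 leukocyte integrin genes tested, left, and the 10 other integrin subunit genes tested, right, coloured by the edgeR call. Itgb7 has the largest value on the left (1.40) and Itgal the lowest (-0.62), and Itgb2l, Itgb5 and Itgb3 are the 3 genes called on the right.

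Markers of other blood cells also differed between the groups, in both directions. Of 10 neutrophil markers tested, 9 were higher in SF1, Mpo was not, and none was at 0. The summed level of all 10 was 2020.5, 2482 and 5330.1 CPM in SF1 replicates 1, 2 and 3, against 902 and 1138 CPM in WT replicates 1 and 2. Mpo made up most of the WT sums, with 779 and 988 CPM in WT libraries and 774, 809 and 990 CPM in SF1 libraries. The sums therefore understate the difference in the other markers, and the median log2 fold change over the 10 was 4.36. Of 10 monocyte and macrophage markers tested, 4 were higher and 4 lower, with sums of 188 to 270.5 CPM in SF1 and 84.6 to 131 CPM in WT. The 4 lower ones were C1qa, C1qb, C1qc and Cd5l, and Cd5l had no count in any SF1 library. Of 10 dendritic markers, 9 were tested and 4 were higher (Siglech, Bst2, Tcf4 and Irf8). Ccr9, Zbtb46, Xcr1, Clec9a and Clec10a did not pass. The sums were 1795 to 2257 CPM in SF1 and 1049 to 1193 CPM in WT. Irf8 made up most of them, with a mean of 1158 CPM in SF1 and 619 CPM in WT. Of 10 mature B and plasma cell markers, 7 were tested and 3 were higher (Igkc, Igha and Jchain), with sums of 781 to 1008 CPM in SF1 and 365 to 401 CPM in WT. Sdc1 and Xbp1, which did not pass, made up most of the WT sums. Mean Igkc, Igha and Jchain levels were 163, 226 and 61.8 CPM in SF1, against 0.473, 0.707 and 1.13 CPM in WT. Of 8 erythroid markers, 6 were tested and 5 were lower, with sums of 4.55 to 6.89 CPM in SF1 and 48.1 to 70.3 CPM in WT. In the remaining lists 1 of 5 NK and innate lymphoid, 1 of 5 T cell, 1 of 5 mast, basophil and eosinophil and 2 of 5 megakaryocyte markers tested were higher and none lower, with Gzmb, Cd8b1 and Gp6 at 0 in all libraries. The 2 megakaryocyte markers were Pf4 and the integrin gene Itgb3, and the count was 1 without SF1 replicate 3 or either WT replicate. The mast, basophil and eosinophil count was 0 without SF1 replicate 3 or either WT replicate. Of 7 stem and multipotent progenitor markers tested, 1 was higher and 1 lower, the lower one not without WT replicate 1. Without WT replicate 1, 2 dendritic markers and 2 monocyte and macrophage markers were higher. The count of lower monocyte and macrophage markers was 1 without SF1 replicate 2, without WT replicate 1 or without WT replicate 2. The part of these cells in the integrin results was not tested, and in bulk RNA a change in the share of a cell type cannot be told apart from a change of RNA per cell.

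Levels of different genes were compared per kilobase of exon. Itgb1 ranked first in both groups, at 59.9 ± 7.66 CPM per kb in SF1 and 68.0 ± 5.72 CPM per kb in WT. Itgb7 ranked 2 of 10 in SF1, at 33.3 ± 9.18 CPM per kb, and 5 of 10 in WT, at 12.7 ± 0.874 CPM per kb. Itgb2 ranked 3 in both groups, at 32.2 ± 6.41 CPM per kb in SF1 and 26.7 ± 3.38 CPM per kb in WT. Below these in SF1 came Itgal (24.1 ± 0.880) and Itga4 (21.4 ± 0.747), while in WT Itgal (37.0 ± 1.54 CPM per kb) was above Itgb2 and Itga4 (15.6 ± 0.742) was below it. The other alpha genes were lower on this scale, with Itga5 at 6.50 ± 0.869 CPM per kb in SF1 and 9.86 ± 1.73 CPM per kb in WT. Itgax was at 4.96 ± 0.467 CPM per kb in SF1 and 2.97 ± 0.0235 CPM per kb in WT, Itgam at 3.66 ± 1.05 in SF1 and 1.53 ± 0.0135 in WT, and Itga6 at 3.52 ± 0.662 in SF1 and 2.78 ± 0.368 in WT. Itgae was last, at 0.139 CPM per kb in SF1 and 0.182 CPM per kb in WT. Neighbours in the order overlapped in their libraries for Itgb7 and Itgb2 and for Itgam and Itga6 in SF1, and for Itgax and Itga6 in WT. The order also depends on the length used. Per kb of the longest transcript, mean Itga6 was at 7.37 CPM in SF1, above Itga5 (7.26), Itgax (5.89) and Itgam (3.93). On that length Itga4 (30.7) was above Itgal (30.3) in SF1, and Itga6 (5.83) was above Itgax (3.53) in WT. Divided by the 1574 bp of exon that Itgam does not share with Gm49368, its level was 11.7 CPM per kb in SF1 and 4.89 CPM per kb in WT, which would move it above Itga5 in SF1 and above Itgax in WT.

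The makeup of the 3 beta chains was also computed within each library, as shares of their summed counts per kb. Itgb7 took 22.7%, 27.4% and 28.5% in SF1 replicates 1, 2 and 3, against 10.6% and 13.1% in WT replicates 1 and 2. Itgb1 took 49.7%, 50.3% and 44.2% in SF1 libraries, against 63.7% and 63% in WT libraries. Itgb2 took 25.8% ± 2.96 in SF1 and 24.8% ± 1.25 in WT. The shares of Itgb7 and Itgb1 did not overlap between the groups, while those of Itgb2 did. The 3 shares add up to the whole, so a higher Itgb7 share lowers the others and these are not separate changes. The level of Itgb1 itself overlapped between the groups and did not pass the test.

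Partner genes were then compared within each library as the log2 ratio of their counts per kb, which needs no scaling between libraries. For 8 alpha to beta pairs and 5 pairs of subunits of the same kind, an exact two-sided permutation test over 3 and 2 libraries could not go below p = 0.2, so no pair could pass 0.05. The groups did not overlap for 12 of the 13 pairs, each with an exact permutation p = 0.2 and 0.217 after adjustment over the 13 pairs. The pairs reuse the same 10 genes, single genes already did not overlap for 49% of all genes tested, and no such share was computed for other gene pairs, so nothing is read from the count of pairs. Only Itga5 over Itgb1 overlapped, with -2.77, -3.46 and -3.38 in SF1 libraries and -2.70 and -2.89 in WT libraries (exact p = 0.4, 0.4 after adjustment).

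For the alpha4 integrins, the log2 ratio of Itga4 to Itgb1 was -1.31, -1.56 and -1.56 in SF1 replicates 1, 2 and 3, against -2.26 and -1.99 in WT replicates 1 and 2. All SF1 ratios were above those of WT, by 0.65 on average. The ratio of Itga4 to Itgb7 was -0.18, -0.68 and -0.92 in SF1 libraries, against 0.32 and 0.28 in WT libraries. Per kb of union exon, Itga4 was thus below Itgb7 in all 3 SF1 libraries and above it in both WT libraries. The difference in the log2 ratio was -0.90. Per kb of the longest transcript, mean Itga4 and Itgb7 levels were 30.7 and 34.3 CPM in SF1, and 22.3 and 13.1 CPM in WT. The sign of this ratio within a single library depends on the length used. Itgb7 over Itgb1 was -1.13, -0.88 and -0.63 in SF1 libraries, against -2.58 and -2.27 in WT libraries, a difference of 1.54 or 2.91-fold. Itga6 over Itgb1 was -4.11, -3.92 and -4.26 in SF1 libraries and -4.56 and -4.66 in WT libraries, a difference of 0.52. Itgae over Itgb7 differed by -1.90 and Itgae over Itga4 by -1.01, both resting on at most 15 counts of Itgae in a library.

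For the beta2 integrins, Itgal over Itgb2 was -0.19, -0.30 and -0.71 in SF1 libraries, against 0.39 and 0.56 in WT libraries, a difference of -0.88. Per kb of union exon, the LFA-1 alpha gene was thus below its beta partner in all SF1 libraries and above it in both WT libraries. Per kb of the longest transcript, mean Itgal and Itgb2 levels were 30.3 and 33.1 CPM in SF1, and 46.6 and 27.4 CPM in WT. Here too the sign within a single library depends on the length used. Itgam over Itgb2 was -3.53, -2.77 and -3.18 in SF1 libraries, against -4.25 and -3.97 in WT libraries, a difference of 0.95. Itgax over Itgb2 was -2.46, -2.69 and -2.90 in SF1 libraries, against -3.30 and -3.02 in WT libraries, a difference of 0.47. Within the alpha chains of beta2, Itgam over Itgal differed by 1.83 (3.55-fold) and Itgax over Itgal by 1.35 (2.56-fold). Itgb2 over Itgb1 differed by 0.45, with -0.84, -1.17 and -0.70 in SF1 libraries and -1.31 and -1.40 in WT libraries.

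**Figure D3:**
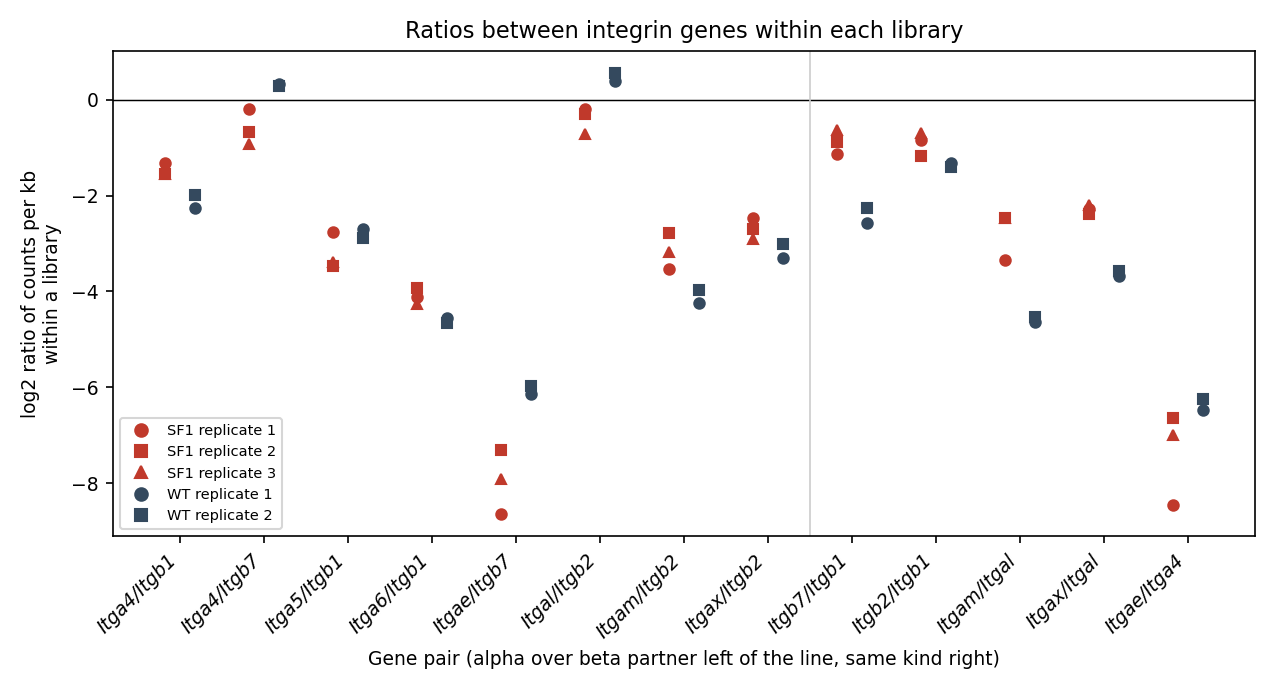
Log2 ratio of counts per kb between integrin genes within each library, SF1 left and WT right for each pair, with 8 alpha to beta pairs left of the line and 5 pairs of the same kind right of it. The groups separate for all pairs but Itga5 over Itgb1. With union exon lengths, the ratios of Itga4 to Itgb7 and of Itgal to Itgb2 are below 0 in the SF1 libraries and above 0 in the WT libraries. Their sign in a single library depends on the length used.

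For each member that passed, the most similar patterns were sought among 9970 other genes, as the root mean square difference of centred log2 CPM over the 5 libraries. Itga4 was nearest to Ramp1 (0.0155) and Gpr171 (0.019), and Itgal to Hps4 (0.0212) and Tmppe (0.0244). Itga5 was nearest to Abi2 (0.036) and Alkbh5 (0.04), and Itgax to Rgs10 (0.0411) and Fgd4 (0.0504). Itgb7 was nearest to Strip2 (0.0555) and Tyrobp (0.111), and Itgam to Rtn4rl1 (0.11) and Bcl3 (0.135). The distances are descriptions over 5 libraries with no test.

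Of 17 other integrin subunit genes, 10 were tested, 3 were higher in SF1, none was lower and 7 did not pass, with a median log2 fold change of 0.61. At an unadjusted p below 0.05, 4 were higher and none lower, and DESeq2 and limma each called 3 higher and none lower. Itgb2l, a beta2-like gene that mouse neutrophils express, had 5.64, 6.74 and 22.2 CPM in SF1 replicates 1, 2 and 3, against 0.302 and 1.14 CPM in WT replicates 1 and 2 (log2 fold change 4.26, SE 0.80, adjusted p = 0.00862). SF1 replicate 3 held both the highest Itgb2l level and the highest neutrophil marker sum, and the part of these markers in it was not tested. Without WT replicate 1 the Itgb2l call was lost (adjusted p = 0.0779; range over alternatives 2.65e-27 to 0.0779). Itgb5, which pairs with alphaV, had 18.7, 20.2 and 20.0 CPM in SF1 libraries, against 6.84 and 2.73 CPM in WT libraries (log2 fold change 1.95, SE 0.31, adjusted p = 0.00397). Itgb3, which pairs with alphaV or with the platelet chain alphaIIb, had 10.1, 9.90 and 11.1 CPM in SF1 libraries, against 3.98 and 4.21 CPM in WT libraries (log2 fold change 1.34, SE 0.21, adjusted p = 0.00405). Both kept their call in every alternative. The alpha partners did not pass, with log2 fold changes of -0.33 for Itgav (adjusted p = 0.217) and 0.67 for Itga2b (adjusted p = 0.236). The others not passing were Itga1 (0.91, adjusted p = 0.125), Itgad (0.55, adjusted p = 0.245), Itga3 (0.44, adjusted p = 0.586), Itgb4 (0.09, adjusted p = 0.898) and Itga9 (-0.65, adjusted p = 0.320). Itga9 was above 0 without WT replicate 1 (0.30). Itgb4 was below 0 without SF1 replicate 3 (-0.35) and with the replicate block (-0.35), where the fold changes rest on the same libraries. Itga7, Itgb6 and Itgb8 had no count in any library.

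In the wider integrin machinery, 6 lists that include these other subunits held 100 genes. Of the 81 tested, 12 were higher in SF1 (14.8%), 11 were lower (13.6%) and 58 did not pass, with a median log2 fold change of 0.06. The shares over all genes tested were 6.77% higher and 9.74% lower. The same shares are the background for the counts of each list, and no list was tested as a set. Without WT replicate 1, the count of higher genes was 6.

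Among inhibitors of integrin activation, 3 of 8 tested were lower, none was higher and 5 did not pass (median log2 fold change -0.43). At an unadjusted p below 0.05, 5 were lower and none higher, and DESeq2 called 4 lower and limma 3. Sipa1, a GTPase-activating protein that turns Rap1 off, had 104, 89.2 and 117 CPM in SF1 libraries, against 365 and 306 CPM in WT libraries (log2 fold change -1.70, SE 0.12, adjusted p = 0.000161). Each SF1 library was far below both WT libraries. Rasa3, also a Rap1 and Ras GTPase-activating protein, had a log2 fold change of -1.02 (adjusted p = 0.00122), and the adaptor Dok2 one of -0.61 (adjusted p = 0.00331). All 3 kept their call in every alternative.

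Among activators, 2 of 17 tested were higher, 3 were lower and 12 did not pass (median log2 fold change 0.05), with 1 higher when WT replicate 1 was left out. Rapgef1, an exchange factor that turns Rap1 on, had 51.0, 63.1 and 64.1 CPM in SF1 libraries, against 28.3 and 27.6 CPM in WT libraries (log2 fold change 1.09, SE 0.13, adjusted p = 0.00133). The adaptor Fyb was higher (0.67, adjusted p = 0.00905), a call lost without WT replicate 1 (adjusted p = 0.0696; range over alternatives 2.88e-06 to 0.0696). Tln1, whose product talin binds the beta chain's tail to activate it, had 414, 371 and 421 CPM in SF1 libraries, against 699 and 566 CPM in WT libraries (log2 fold change -0.66, SE 0.10, adjusted p = 0.00379). With the correction for GC content and length its log2 fold change was -0.36 and still passed (adjusted p = 0.0156; range over alternatives 2.93e-13 to 0.0248). Cyth1, which binds the tail of beta2, was lower (-0.66, adjusted p = 0.0031). Dock2, a Rac exchange factor of leukocyte migration, was lower (-0.30, adjusted p = 0.028), a call lost in 7 of 14 alternatives, among them the fits without SF1 replicate 1, 2 or 3 and without WT replicate 1 (adjusted p over alternatives 0.00312 to 0.19).

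Among genes of the adhesion complex and of signalling from bound integrins, 2 of 22 tested were higher, 3 were lower and 17 did not pass (median log2 fold change -0.11). Pxn, which codes for the scaffold paxillin, had 96.9, 76.9 and 99.1 CPM in SF1 libraries, against 188 and 163 CPM in WT libraries (log2 fold change -0.95, SE 0.12, adjusted p = 0.00162). Actn4, an actin crosslinker, was lower (-0.58, adjusted p = 0.00158), as was the adaptor Crk (-0.34, adjusted p = 0.0213). Fgr, a Src-family kinase of myeloid cells, had 16.1, 22.2 and 34.0 CPM in SF1 libraries, against 8.55 and 9.22 CPM in WT libraries (log2 fold change 1.45, SE 0.29, adjusted p = 0.0115). Lyn, another kinase of this family, was higher (0.35, adjusted p = 0.0453). The Crk call was lost without SF1 replicate 2 or 3 or WT replicate 1 and with the replicate block (adjusted p over alternatives 0.00429 to 0.157). The Fgr call was lost without WT replicate 1 (0.0787; range 5.87e-11 to 0.0787), and the Lyn call in 7 alternatives, among them those without SF1 replicate 2 or 3 or WT replicate 1 (range 0.0112 to 0.295). The count of higher genes was 1 without SF1 replicate 3 and 0 without WT replicate 1.

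Among membrane partners and trafficking genes, 5 of 15 tested were higher, 2 were lower and 8 did not pass (median log2 fold change 0.13), and the count of higher genes became 2 when SF1 replicate 2 or 3 was left out and 3 when WT replicate 1 or 2 was. Rab21, a small GTPase that binds alpha chains and recycles beta1 integrins, had 58.5, 65.9 and 71.6 CPM in SF1 libraries, against 16.4 and 11.8 CPM in WT libraries (log2 fold change 2.18, SE 0.16, adjusted p = 0.000196). This was the largest fold change called in its list and held in every alternative. The tetraspanin Cd53 was higher (0.44, adjusted p = 0.00559), a call lost with the correction for GC content and length (log2 fold change 0.15, adjusted p = 0.251) and range over alternatives 2.47e-05 to 0.489. Cd47, an integrin-associated protein, was higher (0.26, adjusted p = 0.0308), a call lost in 5 alternatives, among them those without SF1 replicate 2 or 3 or WT replicate 1 (range 0.0163 to 0.157). The tetraspanins Cd37 and Cd81 were lower, each with a log2 fold change of -0.45 (adjusted p = 0.00771 and 0.00759). Cd37 lost its call with the GC and length correction and the replicate block together (range 6.41e-06 to 0.115). Of 9 ligand genes tested, none passed by edgeR's quasi-likelihood test (median log2 fold change 0.09), where 1 was higher and 1 lower at an unadjusted p below 0.05, and DESeq2 and limma each called 1 lower. Madcam1, the gut ligand of alpha4beta7, had no count in any library.

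**Figure D4:**
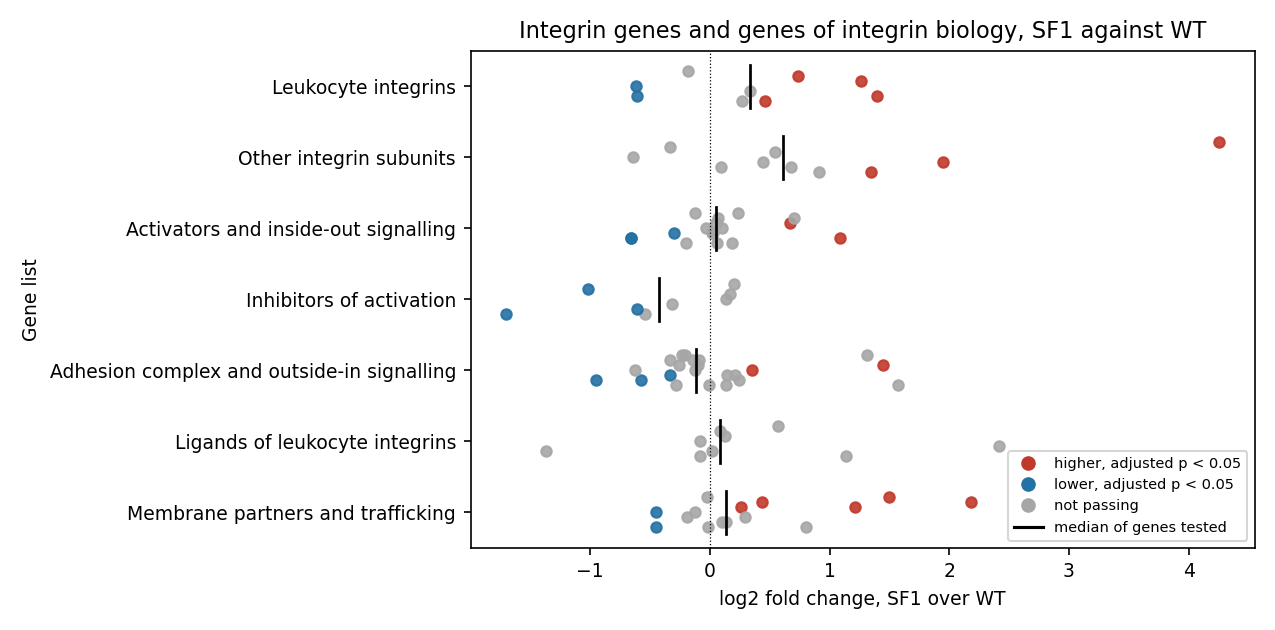
Log2 fold change of SF1 over WT for every tested gene of the leukocyte integrins (top row) and of 6 lists of integrin biology, coloured by the edgeR call, with a black line at each list's median. The inhibitor list has 3 genes lower and none higher, the other subunits 3 higher and none lower, and the ligand list none called.

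**Figure D5:**
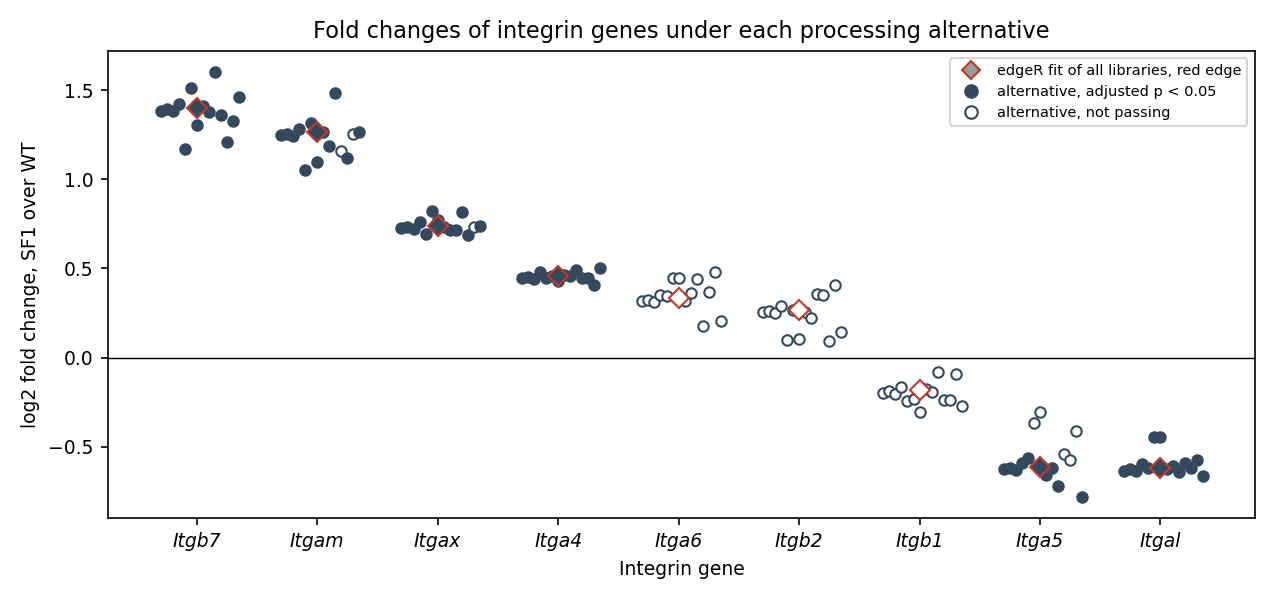
Log2 fold change of SF1 over WT for the 9 integrin genes tested, under the edgeR fit of all libraries (diamonds) and 14 processing alternatives (circles), filled where the adjusted p is below 0.05. Each gene keeps its sign in every alternative, Itgb7, Itga4 and Itgal are filled throughout, and Itgam, Itgax and Itga5 have open circles.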

How the data were processed

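RNA from sorted progenitors was isolated with a column kit, required to have a RIN above 7 per the labels' protocols, amplified with SMART-Seq chemistry and made into Nextera XT libraries. The authors deposited raw counts per gene with no normalization. FastQC, HISAT2 2.2.1 and featureCounts 2.0.1 with the GRCm38 mouse genome were used, per the submitters' processing notes; the annotation release, strand setting and handling of shared reads were not stated. Of 55487 identifiers, 55227 matched the GENCODE M21 annotation (GRCm38), and 260 did not (0.0123% of counts).

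Counts were scaled by TMM, filtered (filterByExpr, minimum count 10) and tested with edgeR 4.0.16 in R 4.3.3, SF1 against WT with no covariate, with Benjamini-Hochberg adjustment over all 14423 genes tested. The biological coefficient of variation was 0.122. Partner ratios used a pseudocount of 0.5 and union exon lengths. Alternatives were DESeq2 1.42.0, limma 3.58.1 voom with sample weights, DESeq2 size factors in edgeR, no filter, a minimum count of 50, thinning to the smallest library, a GC and length correction, the replicate number as a block, and leaving out each library. The scripts were tested on simulated data. Members, gene lists, pairs and tests were chosen with earlier results of these data known. All members were named, and from each pathway list up to 3 genes per direction with the smallest p, every other integrin subunit tested, Flt3, Il7r, Jak2, and the 2 nearest patterns (genes with a mean of at least 5 CPM). Depths and what a single count is worth are given in the text above; no other samples' columns were in the table.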

Additional observations from a re-analysis of the deposited data

How the results depend on the processing

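All 9 members tested kept their sign in all 14 alternatives, and Itgb7, Itga4 and Itgal kept their call. The count of genes called over all genes was 2382 and became 1519 with the replicate block and 986 to 2170 on leaving out a library, lowest without WT replicate 1; it was 1234 without SF1 replicate 2 and 1294 without SF1 replicate 3. Members higher in SF1 numbered 4, and 2 to 4 on leaving out a library. Members lower in SF1 numbered 2, and 1 with the GC and length correction, 1 with that correction and the replicate block, and 1 to 2 on leaving out a library. Higher genes of the 6 lists numbered 12, and 6 to 14 on leaving out a library; lower ones numbered 11, and 17 with no filter on low counts, which tests more genes. Itgb4 reversed to a log2 fold change of -0.35 with the replicate block, and lay between -0.35 and 0.27 on leaving out a library; Itga9 lay between -1.15 and 0.30. In the block fit, SF1 replicate 3 has no WT library of its number. The fold changes there rest on replicates 1 and 2 of each group, as in the fit without SF1 replicate 3. Itgb4 had a log2 fold change of -0.35 in both. What sets SF1 replicate 3 apart, and the cause of the other changes, was not tested. Differences in partner ratios moved by less than the spread between replicates in every alternative run. Same-numbered libraries correlated at 0.0462 and 0.0615 in their deviations from the group mean. The deviations of the 2 WT libraries mirror each other, so the same SF1 libraries correlated at -0.0462 and -0.0615 with the other WT library. These values therefore cannot decide on a pairing. The labels state none, so the block has no known meaning. With the block 4 members were higher and 2 lower. Log2 fold changes fell with GC content (Spearman -0.152) and exon length (-0.194) over 14403 genes, a correlation across genes, which are not independent. At 2 to 15 counts per library, Itgae allows no detectable difference.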
